A study of Mus musculus with 13 samples.

Results

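Gnrhr encodes the receptor for gonadotropin-releasing hormone (GnRH), and its chromatin was described in LβT2 cells, a gonadotrope-type line from mouse pituitary, before and after a short exposure to activin A. The gene (ENSMUSG00000029255) lies on the minus strand of chromosome 5, and its start, derived from peak centres and deposited distances, is at chr5:86197901 in GRCm38 coordinates. All 23 peaks that carried its name gave this position and strand, and RefSeq's GRCm38.p6 gene spans chr5:86180754-86197901. Peaks were taken when the deposited annotation named Gnrhr for them or when they lay within 200 kb of that start. This gave 276 peaks of 538751 in 12 peak lists, of which 23 were named Gnrhr.

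Gonadotropes sense GnRH through this receptor, a G protein-coupled receptor that acts mainly through Gq, phospholipase C, calcium and protein kinase C to drive gonadotropin synthesis and release. The number of receptors on the cell sets how strongly it answers GnRH, and activin is known to raise Gnrhr transcription. The proximal promoter is known for sites for SF1 (Nr5a1) and AP-1 and for a composite element, named GRAS, through which activin, SMAD proteins and forkhead factors including FOXL2 act.

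Chromatin immunoprecipitation and sequencing (ChIP-seq) was done on LβT2 cells that carried a lentiviral, doxycycline-inducible FLAG-tagged mouse FOXL2 (FLAG-mFoxL2), a forkhead transcription factor. Every group shared the transgene and 48 h of doxycycline, so the FOXL2 peaks report the induced tagged protein and no group lacked it. A recovery of 24 h, an equilibration of 2 h and 2% serum were also common to all groups. Treatment lasted 1 h, with activin A at 1 nM or with its vehicle. Each antibody had 2 samples per treatment, each pooled from 3 plates. Whether samples of different antibodies with the same replicate number shared chromatin is not given in the labels. Antibodies to SMAD2/3 (the factors activated by activin receptors), FLAG (called FOXL2 here) and H3K27ac (acetylated lysine 27 of histone H3, found at active enhancers and promoters) were used with both treatments. Samples of 1 stable line pooled from plates limit the p-values to the spread between these samples. A Protein-A control was not analysed here. Reads per library are unknown, and list lengths stand in their place: 605 and 144 peaks for SMAD2/3 with vehicle against 7784 and 5970 with activin, 83834 to 97701 for FOXL2, and 38995 to 41763 for H3K27ac. Gonadotrope identity was read from H3K27ac at promoters. In all 4 H3K27ac lists, 9 of 13 gonadotrope markers had a promoter peak, Cga, Lhb and Nr5a1 among them, against 0 of 10 markers of other pituitary lineages. Of the 12 and 7 markers with any peak these were 9 and 0, where 38.6% of 14164 protein-coding genes with any peak had one. Fshb, which encodes the follicle-stimulating hormone β subunit, and Lhx3 had no such peak in any H3K27ac list. Gnrhr is counted in the 9, but as the gene under study it lends no support of its own to identity. The peak counted at Gnrhr was a broad one over the start that the deposited annotation classed as intron. Promoter peaks in this count were thus not limited to peaks annotated to a promoter.

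The promoter sequence is shown because SMAD2/3, FOXL2 and H3K27ac peaks all covered part of it. It is the RefSeq GRCm38.p6 sequence of chr5:86197902-86198151, minus strand, 5′ to 3′ in the direction of transcription, the 250 bases before the start. Capitals mark AGAC, the reverse complement of the short SMAD element GTCT, and GTTTAC, a forkhead core.
Gnrhr promoter: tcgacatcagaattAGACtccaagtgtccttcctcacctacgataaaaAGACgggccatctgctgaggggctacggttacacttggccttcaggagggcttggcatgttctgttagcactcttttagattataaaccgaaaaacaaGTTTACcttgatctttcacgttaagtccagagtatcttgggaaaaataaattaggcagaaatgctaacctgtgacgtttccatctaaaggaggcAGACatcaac
Positions count from the start as 0, with upstream bases negative. AGAC lay at -236 to -233, -202 to -199 and -10 to -7. GTCT or its reverse complement was in 88% of 32851 promoter windows of 300 bases, 250 before and 50 after a start, so most promoters hold it. GTTTAC lay at -104 to -99 and was in 7.89% of the windows on either strand. It was added after the sequence had been read. The other motifs were searched on both strands in the same 300-base window and gave no match. For SMAD these were the palindrome GTCTAGAC (in 0.213% of windows), GGCGCC (11.9%) and, contained in it, GGCGC (36.9%). Forkhead motifs were TGTTTAC (3.65%), which contains the core above, then TGTTTGC (5.07%) and GTCAACA (2.5%). The core of GRAS was searched as GTCACAACA (0.207%), AP-1 as TGANTCA (7.81%) and the cyclic AMP response element as TGACGTCA (1.79%). SF1 was searched as AAGGTCA (4.72%) and, extended by 1 base, as CAAGGTCA (1.56%). Homeodomain motifs were TAATTA (5.29%), a paired palindrome (0.487%) and, of the bicoid type, TAATCC (7.06%). The NF-Y motif was CCAAT (37.4%) and the octamer ATGCAAAT (1.74%). No match says only that these letters are not in this window, and the SMAD2/3 summits, given next, lay upstream of it.

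At the promoter, SMAD2/3 peaks were listed only with activin. Neither vehicle list held a SMAD2/3 peak named Gnrhr, and each activin list held 2, one at the promoter and one in the first intron. The promoter region spanned chr5:86197863-86198344 and was of the promoter-TSS class. The deposited fold enrichment, the authors' linear ratio to a background that no source used here defines, was 10.6 in activin replicate 1 and 9.46 in replicate 2. Peaks were ranked within their own list by the authors' −log10 q, here 40.9 and 29.1. The promoter peak took place 677.5 of 7784 and place 788 of 5970, percentile ranks of 91.3 and 86.8 on a scale where 100 is the strongest. Among SMAD2/3 peaks of the promoter class it was place 18 of 337 and place 22 of 259. Both activin libraries thus held it in the upper part of their lists. The short vehicle lists are a limit: when all 4 SMAD2/3 lists were cut to their strongest 144 peaks, the promoter peak was in none, and no SMAD2/3 region near Gnrhr remained activin-only.

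FOXL2 was at the same promoter in all 4 libraries, at a lower fold and rank in both activin libraries. The region spanned chr5:86197708-86198424. Fold enrichment was 10.2 and 10.6 with vehicle against 6.98 and 6.57 with activin. The 2 groups did not overlap: the mean was 10.4 ± 0.29 (SD, n = 2) with vehicle against 6.77 ± 0.286 (SD, n = 2) with activin, which differ by -3.62 with an exact permutation p of 0.333, two-sided. With 2 libraries against 2 this test cannot give a smaller value, so no comparison here can pass 0.05.

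Its place among FOXL2 peaks told the same order. The percentile rank was 80.6 and 86.6 with vehicle against 69.7 and 70.8 with activin. The means were 83.6 ± 4.3 and 70.2 ± 0.838 (SD, n = 2 each), a difference of -13.4 (exact permutation p = 0.333, two-sided). Ranks from lists of different length do not by themselves measure a change in occupancy. With the 4 lists cut to the same length the difference was -17.334, and ranking by fold in place of −log10 q made it -21.358.

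A lower FOXL2 rank in both activin libraries was less common where SMAD2/3 appeared with activin than over all FOXL2 regions of all 4 libraries. Of 3140 FOXL2 regions with a peak in all 4 libraries that overlapped an activin-only SMAD2/3 region, 53.8% ranked higher in both activin libraries and 19.8% ranked lower in both. Over all 58444 FOXL2 regions of all 4 libraries these shares were 29.9% and 28.1%. The median rank difference of these 3140 was 3.13, and 174 of them (5.54%) had a difference lower than that of the Gnrhr promoter. Of the 111 such regions of the promoter class, 4 (3.6%) had a lower difference, with a median of 4.16 over all 111. The 4 were near Gm11250, Gm37431, Gm7776 and Foxp2, a forkhead gene, and were named after their values were seen. Among all 58444 FOXL2 regions of all 4 libraries, 14.8% had a lower difference. These shares describe the promoter's position among other regions, with no test.

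SMAD2/3 and FOXL2 summits lay apart at the promoter. SMAD2/3 summits were at -283 and -287 bp from the start in the 2 activin libraries. FOXL2 summits were at -123 and -158 bp with vehicle against -96 and -74 bp with activin. The GTTTAC match lies between these FOXL2 summit positions. The mean FOXL2 summit position was -140.5 ± 24.7 bp with vehicle and -85 ± 15.6 bp with activin (SD, n = 2 each), 55.5 bp nearer the start, with an exact permutation p of 0.333, two-sided. In the activin libraries of the same replicate number, the SMAD2/3 and FOXL2 summits were 187 and 213 bp apart. Over all SMAD2/3 peaks that overlapped FOXL2, the median distance was 30 and 31 bp, and 6.84% and 6.55% lay at least as far apart as at Gnrhr. Among promoter-class peaks these shares were 8.19% and 5.85%.

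**Figure D1:**
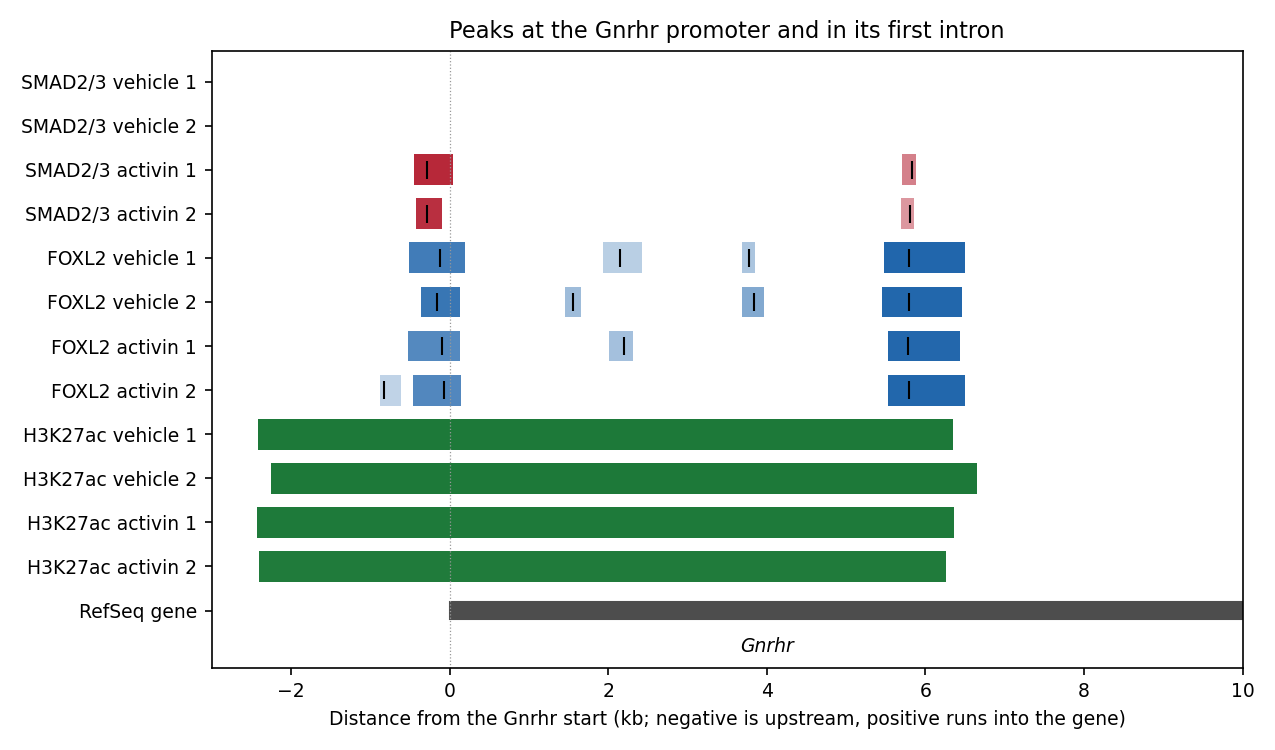
Peaks at the promoter and in the first intron of Gnrhr in each of the 12 libraries, by distance from the start in kb; bars are peaks, darker bars rank higher in their own list, and black ticks are summits (H3K27ac broad peaks have none). SMAD2/3 bars appear only in the 2 activin libraries, and a single H3K27ac bar per library covers both sites.

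The strongest FOXL2 site of the gene was in the first intron and not at the promoter. This region spanned chr5:86191404-86192449, with its centre 5.97 kb into the gene. Fold enrichment was 42.8 and 33.6 with vehicle against 35.1 and 33.6 with activin. It held place 228 of 86401 and 477 of 83834 with vehicle, and 899 of 97701 and 551 of 94006 with activin, percentile ranks of 99.74 and 99.43 with vehicle against 99.08 and 99.41 with activin. The site was near the top of the FOXL2 list in every library. Its folds with vehicle and activin overlapped, and its ranks were lower in both activin libraries by a narrow margin.

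SMAD2/3 was weak at the intronic site. Its region, chr5:86192018-86192214, lay inside the FOXL2 region and was activin-only. Fold was 5.02 and 4.64 and the percentile rank 39.7 and 26.9. Here the summits of the 2 factors were close, 52 and 15 bp apart. So within Gnrhr the higher-ranked SMAD2/3 peak lay at the lower-ranked FOXL2 site, and the reverse held in the intron, in both activin libraries.

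The ratio of FOXL2 fold at the promoter to that in the intron, a measure within each library that was added after the values were seen, was 0.238 and 0.315 with vehicle against 0.199 and 0.195 with activin. The groups did not overlap. The means were 0.2766 ± 0.0545 and 0.1972 ± 0.0025 (SD, n = 2 each), a difference of -0.0793 with an exact permutation p of 0.333, two-sided. Without vehicle replicate 2 the difference was -0.0408, so the size of this shift rests largely on that library.

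**Figure D2:**
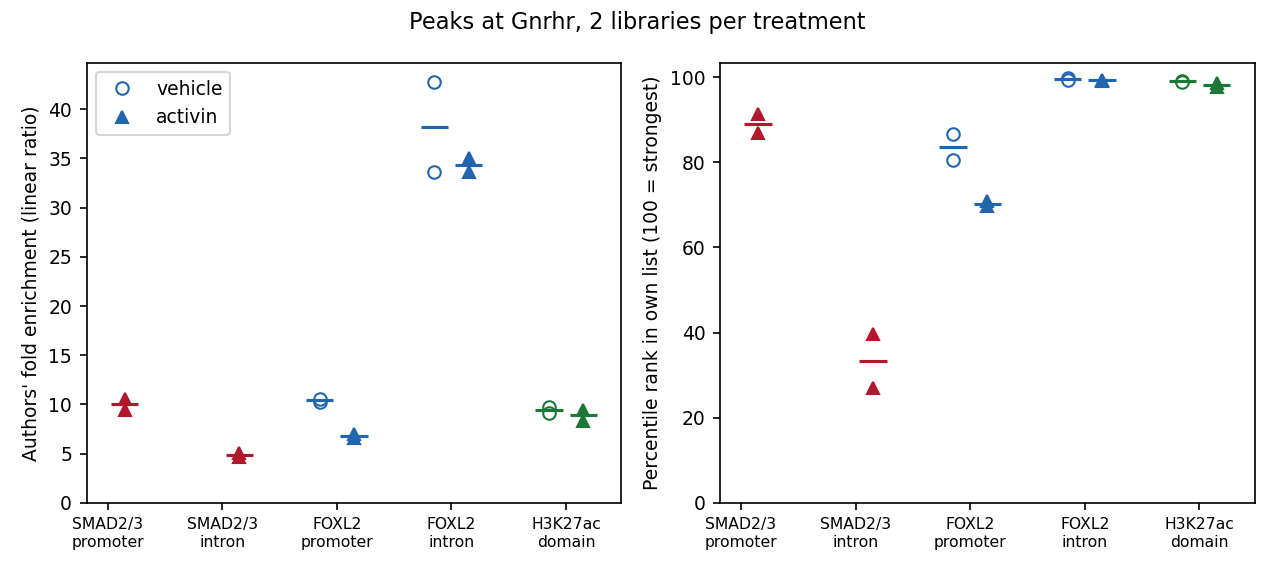
Fold enrichment as a linear ratio (left) and percentile rank in the library's own list (right) at the named Gnrhr sites; open circles are the 2 vehicle libraries, filled triangles the 2 activin libraries, and lines their means. FOXL2 at the promoter is lower in both activin libraries, FOXL2 in the intron is near the top in all 4, and SMAD2/3 has no vehicle points because no peak was listed.

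The other 5 FOXL2 regions named Gnrhr were weak. The region 3.82 kb into the gene was found only with vehicle, at folds of 4.21 and 5.01. The region at 2.18 kb had a peak in vehicle replicate 1 and activin replicate 1, that at 1.56 kb in vehicle replicate 2, that at -0.747 kb in activin replicate 2 and that at -12.4 kb in vehicle replicate 1, negative distances being upstream. In count, FOXL2 peaks named Gnrhr numbered 5 and 4 with vehicle against 3 and 3 with activin, and the difference came from these weak regions.

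H3K27ac covered both sites in a single broad peak in every library. The merged domain spanned chr5:86191248-86200332, from upstream of the start through the intronic FOXL2 site. Its width was 8760 and 8902 bp with vehicle and 8785 and 8669 bp with activin, wider than at least 99.4% of the peaks in each list. Percentile ranks by −log10 q were 99.1 and 98.9 with vehicle against 98.7 and 97.6 with activin. Fold enrichment was 9.73 and 9.12 with vehicle against 9.44 and 8.32 with activin, and the groups overlapped (9.43 ± 0.425 against 8.88 ± 0.787, SD, n = 2 each; difference -0.544, exact permutation p = 0.667, two-sided). Ranks differed by -0.8444 on average, lower in both activin libraries (exact permutation p = 0.333, two-sided). This difference was -1.3762 without activin replicate 1 and -0.31264 without activin replicate 2. The domain was thus near the top of the H3K27ac lists before activin was added. Of 2913 H3K27ac regions of all 4 libraries at SMAD2/3 regions of both activin libraries, 63.6% ranked higher in both activin libraries and 16.6%, this domain among them, ranked lower. Over all 24356 H3K27ac regions of all 4 libraries these shares were 26.4% and 31.2%.

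Across the 200 kb on either side, each target had more peaks with activin. SMAD2/3 peaks numbered 1 and 2 with vehicle against 7 and 6 with activin, 1.5 ± 0.707 against 6.5 ± 0.707 (SD, n = 2 each). FOXL2 peaks numbered 50 and 45 against 54 and 56, 47.5 ± 3.54 against 55 ± 1.41 (SD, n = 2 each). H3K27ac peaks numbered 11 and 11 against 16 and 17, 11 ± 0 against 16.5 ± 0.707 (SD, n = 2 each). The groups did not overlap for any target, and the exact permutation p was 0.333 for each, two-sided, and 0.333 after Benjamini-Hochberg adjustment over the 3. For H3K27ac the difference of 5.5 peaks was 1.5 when only peaks with a −log10 q of at least 5 were counted (exact permutation p = 0.667, two-sided) and -1 within 500 kb. The whole lists were longer with activin too for SMAD2/3 and FOXL2. SMAD2/3 peaks here made up 0.165% and 1.39% of the vehicle lists and 0.0899% and 0.101% of the activin lists, and FOXL2 peaks 0.0537% to 0.0596% of each list. The H3K27ac lists were of like length in both treatments, and the share here was 0.0267% and 0.0272% with vehicle against 0.0383% and 0.0436% with activin. The length that H3K27ac peaks covered was 25501 and 24330 bp with vehicle and 28491 and 24817 bp with activin. Its difference of 1738.5 bp was smaller than the spread between the activin libraries (SD 2600, n = 2; exact permutation p = 0.667, two-sided), and it was -98.5 bp without activin replicate 1 and 3575.5 bp without activin replicate 2.

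**Figure D3:**
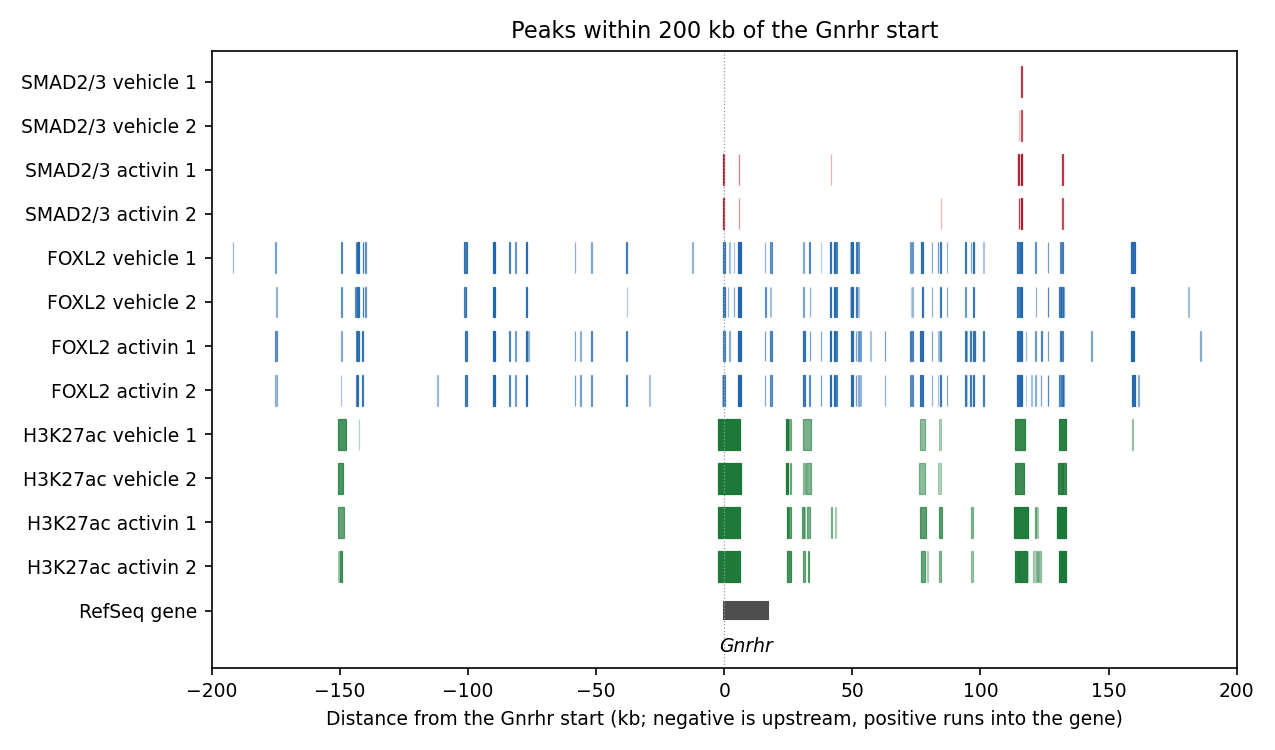
All peaks within 200 kb of the Gnrhr start in each of the 12 libraries, by distance from the start in kb; darker bars rank higher in their own list. SMAD2/3 peaks lie at the promoter, in the gene and from 41.6 to 132 kb beyond the start on the downstream side, and FOXL2 peaks are spread over both sides.

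Peaks of the 4 libraries of a target that shared at least 1 bp were merged into regions. The rank and fold of a region in a library are those of its strongest peak there. A region called activin-only held peaks of both activin and of no vehicle libraries, and a vehicle-only region the reverse. Of 8 SMAD2/3 regions near Gnrhr, 3 were activin-only, 0 were vehicle-only and 1 had a peak in all 4 libraries, against 54%, 0.0233% and 1.53% of 8602 SMAD2/3 regions in all. The count of activin-only regions was 5 without activin replicate 2, since the 2 regions seen only in activin replicate 1 then joined.

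All 8 SMAD2/3 regions overlapped a FOXL2 region that had a peak in all 4 FOXL2 libraries. Of the 5 regions with SMAD2/3 in both activin libraries, 5 overlapped FOXL2 and 5 overlapped H3K27ac in both activin libraries. The exact Clopper-Pearson 95% interval of each share, 47.8% to 100%, gives counting error only and takes the regions as independent. Yet the promoter and intronic regions lay under the same H3K27ac region. Those at 115 and 116 kb lay under another. Of all 5162 such SMAD2/3 regions, 82% overlapped FOXL2 and 76.7% overlapped H3K27ac. Read the other way, 5 of 49 FOXL2 regions of both activin libraries overlapped SMAD2/3, or 10.2% against 5.22% of all 80073, and 16 of 49 overlapped H3K27ac, or 32.7% against 18.4%.

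The highest-ranked SMAD2/3 site near Gnrhr lay 116 kb from its start on the downstream side. This region, chr5:86081709-86082122, was annotated to an intron near the snRNA gene Gm24524 and was the only SMAD2/3 region here in all 4 libraries. Fold was 6.14 and 5.83 with vehicle against 17.9 and 18.6 with activin. Its place was 190 of 605 and 66 of 144 with vehicle, and 80 of 7784 and 111 of 5970 with activin. FOXL2 ranked 98.1 and 98.9 there with vehicle against 98.1 and 98.6 with activin. H3K27ac over it, chr5:86079464-86084679, ranked 83.8 and 81.0 with vehicle against 95.7 and 95.4 with activin. This site thus had SMAD2/3 before activin, a FOXL2 rank that did not separate by treatment, and an H3K27ac rank that was higher in both activin libraries.

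A neighbouring region 115 kb from the start, chr5:86082727-86083101, had SMAD2/3 in both activin libraries at folds of 9.87 and 10.2 and in vehicle replicate 2 at 4.24. The FOXL2 region over it ranked 82.5 and 80.8 with vehicle against 89.8 and 93.1 with activin. A further region at this distance, chr5:86083218-86083386, lay under the same FOXL2 region and was seen only in activin replicate 1. The third activin-only region lay 132 kb from the Gnrhr start at the promoter of Cenpc1, a centromere protein gene, at chr5:86065829-86066044, with folds of 7.56 and 6.97. FOXL2 ranked 68.5 and 68.4 with vehicle against 63.0 and 76.2 with activin at that promoter, and the H3K27ac region over it ranked 92.3 and 89.8 with vehicle against 98.8 and 98.8 with activin. The remaining SMAD2/3 regions, at 84.6 kb (activin replicate 2, fold 4.30) and 41.6 kb (activin replicate 1, fold 4.68), were each in 1 library. FOXL2 under the first ranked 73.6 and 72.8 with vehicle against 63.9 and 73.5 with activin, and under the second, within Uba6, 82.0 and 84.3 with vehicle against 97.1 and 94.6 with activin. Which gene any of these sites acts on was not measured.

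FOXL2 regions near Gnrhr were many and mostly shared between treatments. They numbered 68, of which 35 (51.5%) had a peak in all 4 libraries, 6 (8.82%) were activin-only and 3 were vehicle-only, against 46.8%, 8.95% and 3.22% of 124781 FOXL2 regions in all. Those on the downstream side numbered 46 and those upstream 22. The highest ranked were the intronic site, a region at -89.8 kb that ranked 99.4 and 98.1 with vehicle against 99.4 and 99.0 with activin, and the region at 116 kb. The 5 highest-ranked activin-only regions lay at 124, 62.8, 53.2 and 118 kb downstream and at -56.2 kb, with folds from 3.48 to 8.77. The vehicle-only regions lay 3.82 and 49.0 kb downstream and at -140 kb, with folds from 3.58 to 5.16. Leaving out a library loosens these rules, so the counts can hardly fall and do not test stability. The activin-only count was 14 without vehicle replicate 1, 11 without activin replicate 1 and 10 without activin replicate 2. The vehicle-only count was 5 with either vehicle library left out.

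Of the 35 FOXL2 regions in all 4 libraries, 7 (20%) ranked higher in both activin libraries and 7 (20%) lower, against 29.9% and 28.1% of all 58444 such regions. The promoter had the third most negative rank difference of the 35, after regions at Tmprss11d (-31.2, at -149 kb) and Uba6 (-20, at 51.5 kb downstream), a ubiquitin-activating enzyme gene. The FOXL2 region 31.1 kb downstream, also in Uba6, went the other way, at 24.6 and 31.2 with vehicle against 85.0 and 80.2 with activin; it was singled out after its values were seen and no SMAD2/3 peak overlapped it. The count of higher-ranked regions was 18 without vehicle replicate 1, 17 without vehicle replicate 2 and 11 without activin replicate 2. With a library left out the rule for a higher rank is looser, so this count too can hardly fall.

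**Figure D4:**
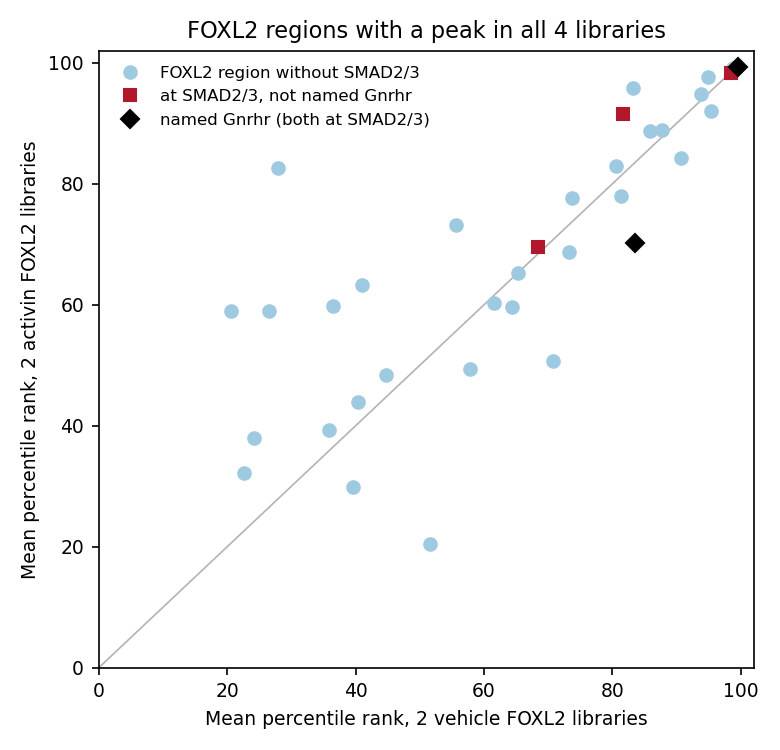
Mean percentile rank of the 35 FOXL2 regions with a peak in all 4 libraries, vehicle on the x axis and activin on the y axis; black diamonds are the 2 regions named Gnrhr, red squares other regions overlapping SMAD2/3 of both activin libraries, and the line marks equal rank. The promoter diamond lies below the line at 83.6 and 70.2, and the intronic diamond sits at the upper corner.

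H3K27ac regions numbered 18, of which 8 (44.4%) had a peak in all 4 libraries, 3 (16.7%) were activin-only and 0 were vehicle-only, against 45.9%, 5.84% and 6.79% of 53008 regions in all. The activin-only regions, at 122, 121 and 96.8 kb, were weak, with folds from 2.77 to 3.61, and none had a −log10 q of at least 5 in both activin libraries. Under the looser rule that a left-out library brings, their number was 6 without activin replicate 1 and 5 without activin replicate 2. The vehicle-only number was then 2 without vehicle replicate 2. Of the 8 regions in all 4 libraries, 5 ranked higher in both activin libraries (62.5% against 26.4% of 24356) and 3 ranked lower (37.5% against 31.2%). The 5 were at 132, 116, 84.2, 77.4 and 32.2 kb downstream, and the 3 were the Gnrhr domain, the Uba6 promoter at 25.1 kb and a region at -149 kb. By their strongest peak, the regions from 32.2 to 132 kb thus ranked higher with activin, and the Gnrhr domain did not. The domain, at 99.1 and 98.9 with vehicle, had little room to rank higher, and its folds with vehicle and activin overlapped. With vehicle the 5 regions ranked lower than the domain, from 8.0 (84.2 kb, replicate 2) to 92.3 (132 kb, replicate 1). Whether the contrast with these 5 regions holds apart from their vehicle ranks was not tested. Covered length did not follow rank in each of these regions. At 32.2 kb, vehicle replicate 1 held a peak of 3024 bp and replicate 2 peaks of 1939 and 906 bp. Activin replicate 1 held peaks of 988, 240 and 548 bp there and replicate 2 peaks of 495 and 838 bp.

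**Figure D5:**
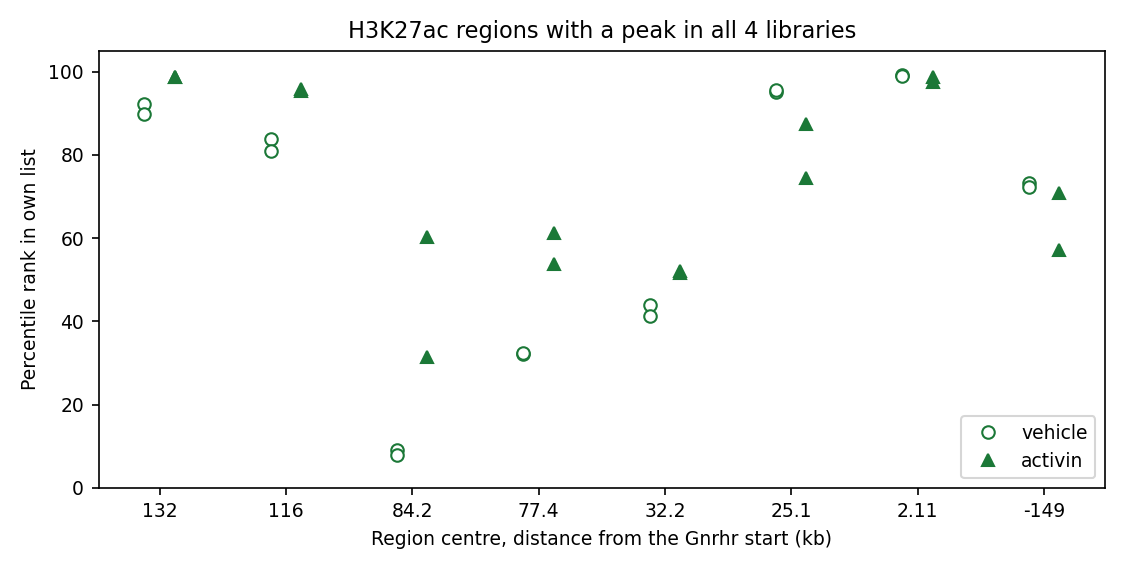
Percentile rank of the 8 H3K27ac regions with a peak in all 4 libraries, by distance of their centre from the Gnrhr start in kb; open circles are vehicle and filled triangles activin libraries. Regions from 132 to 32.2 kb downstream are higher in both activin libraries, and those at 25.1, 2.11 and -149 kb are lower in both.

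The neighbourhood of Gnrhr held more FOXL2 and SMAD2/3 regions than that of most genes, set among the 15467 genes with a peak that the deposited annotation calls protein-coding. The 49 FOXL2 regions of both activin libraries within 200 kb compared with a median of 14 over the starts of all these genes, and 98.7% of genes had fewer. The 39 of both vehicle libraries compared with a median of 13, and 97.6% had fewer. The 5 SMAD2/3 regions of both activin libraries compared with a median of 1, and 95.8% had fewer. For H3K27ac the 11 regions of both activin libraries compared with a median of 9, and 57% of genes had fewer. The 8 H3K27ac regions of both vehicle libraries compared with a median of 9, and 40.9% had fewer. Its 18 regions of any library compared with a median of 15, and 56.4% of genes had fewer. Windows of neighbouring genes overlap, so these places are a description with no test.

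The genes most like Gnrhr were found by the mean absolute difference, over the 12 libraries, in the best percentile rank of a peak carrying the gene's name (0 where none). They were Masp1 (0.652), a complement-activating serine protease, Stard4 (0.714), a cholesterol transporter, Umps (1.06), an enzyme of pyrimidine synthesis, 1700008P02Rik (1.11) and Prkar2b (1.12), a regulatory subunit of protein kinase A, where the median over 15466 genes was 51.9. All 5 had no named SMAD2/3 peak in either vehicle library, activin SMAD2/3 ranks between 83.5 and 93.9, and FOXL2 and H3K27ac ranks of 96.9 or more. The genes were chosen on these same ranks, so the shared pattern follows from the choice. The best FOXL2 peak of Gnrhr was the intronic one, so FOXL2 at its promoter was not compared. Libraries of a target share their sites, so likeness over 12 libraries is a description.

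In the wider GnRH pathway, activin-only SMAD2/3 regions carried the names of 11 of 48 listed genes. On the basis of genes with any peak this was 11 of 45 (24.4%), against 11% of 14164 genes that both the deposited annotation and RefSeq's table call protein-coding, and 0 had a vehicle-only region, against 0.0141%. The ligand gene Gnrh1 had one, 26.2 kb from its start at folds of 6.31 and 5.94. So did the transducers Gnaq, which encodes the Gq α subunit, Itpr1, the IP3 receptor gene, and Prkce, a protein kinase C gene. Among targets and feedback genes they were Dusp1, Fos, Nab1, Nr5a1, Nr0b1 and the gonadotropin subunit genes Lhb and Cga. A promoter-class SMAD2/3 peak in both activin libraries was found for Lhb and Cga in this list, against 0.861% of the protein-coding genes, and for Gnrhr itself. At Cga, the shared α subunit gene, the SMAD2/3 promoter peak ranked 96.1 and 91.1, and at Lhb 66 and 82.1, so Gnrhr at 91.3 and 86.8 was below Cga and above Lhb in both libraries. Cga was also the 1 gene of the list with a SMAD2/3 region in all 4 libraries, against 0.395%. FOXL2 regions in all 4 libraries carried the names of 26 of the 45 (57.8% against 56.3%). Nr5a1, the gene of SF1, had its best SMAD2/3 peak 15.3 kb into the gene, at folds of 7.83 and 6.96, and Fos, an AP-1 subunit gene, had its best at -12.2 kb with folds of 11.7 and 10.1. These shares describe the list with no test.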

How the data were processed

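ChIP-seq peaks of 12 libraries were analysed, 2 per treatment for each of 3 antibodies, of 13 samples in the labels. Per the submitters' processing notes, Bowtie2, MACS2, HOMER and the builds GRCm38 and mm10 were used, with no versions given in the sources used here. Reads were single-end and 50 bp long, per the labels. The depth reached is unknown. Replicates were not pooled, per the peak names in the deposited lists. The authors' fold enrichment is a linear ratio in the deposited lists. What it is relative to is not given in the sources used here. The authors' −log10 p and −log10 q stand beside it in the deposited lists. The deposited score equals the whole part of 10 times the printed −log10 q for 99.74% to 100% of the peaks of each list, and was not used. Distances to the nearest start in bp and annotations came from HOMER annotatePeaks, per the file headers.

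The Gnrhr start was derived from peak centres and these distances. Peaks were ranked within each list by −log10 q, with 100 as the strongest, and merged where they shared at least 1 bp. Values per library were tested by exact permutation, two-sided, using every one of 6 ways to label 4 libraries. The scripts were tested on simulated data (Python 3.11.15, pandas 2.3.3, numpy 2.4.6, scipy 1.17.1). The text names all SMAD2/3 regions, FOXL2 and H3K27ac regions that overlap them, the region nearest the start, the 3 highest ranked, up to 5 activin-only and vehicle-only regions, and the 5 genes most like Gnrhr. Members, lists and tests were chosen with earlier results of these data known. Alternatives were other windows, a −log10 q of at least 5, ranking by fold, lists cut to equal length, an overlap of at least 50%, regions of the vehicle libraries, single libraries left out and a replicate block. Which libraries share a batch is not given in the labels. No sequence beyond the promoter table was used, so the SMAD2/3 summits and the intronic site are without printed sequence. Counts over the listed regulators of the promoter are not reported here.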

Additional observations from a re-analysis of the deposited data

How the results depend on the processing

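Of 148 alternative values, 4 reversed and 23 were counted as moved. Region counts were counted as moved when they changed by over 1.5 times, to 0 or from 0. A difference between treatments was counted as moved only when it became 0. The other 121 were counted as neither, though not all kept their size: the SMAD2/3 peak difference was 12 within 500 kb, and that of H3K27ac was 1.5 with a −log10 q of at least 5. Some of the 121 could hardly differ, so their number does not measure stability. The replicate block leaves each difference unchanged, and the SMAD2/3 vehicle-only count was 0 throughout. With SMAD2/3 lists cut to equal length, the difference in peaks near Gnrhr was 0 and the activin-only count 0. Within 500 kb, the activin-only counts were 9 for SMAD2/3 and 11 for FOXL2, the vehicle-only counts were 7 for FOXL2 and 1 for H3K27ac, 13 FOXL2 regions ranked higher, and the H3K27ac differences reversed to -1 peak and -7037.5 bp covered. Within 100 kb, 1 H3K27ac region was activin-only, 3 ranked higher and the covered length differed by -181.5 bp. With a −log10 q of at least 5, 0 H3K27ac regions were activin-only and 2 ranked higher. Why these values moved was not tested.

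Leaving out single libraries, activin-only counts ran from 3 to 5 for SMAD2/3, from 6 to 14 for FOXL2 and from 3 to 6 for H3K27ac. Vehicle-only counts ran from 3 to 5 for FOXL2 and from 0 to 2 for H3K27ac. FOXL2 regions ranked higher numbered 10 to 18 and H3K27ac regions 5 to 6. Leaving out a library loosens the rules for these region counts, so the counts can hardly fall and their ranges do not test stability. The difference in H3K27ac covered length ran from -98.5 to 3575.5 bp. The H3K27ac rank difference at the domain ran from -1.3762 to -0.31264. The FOXL2 rank difference at the promoter ran from -16.393 to -10.312 and stayed negative throughout.

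Equal replicate numbers were not shown to pair the libraries: deviations from the group means correlated at 0.13 for FOXL2 and -0.028 for H3K27ac. With the replicate block the differences were the same, 5, 7.5 and 5.5 peaks for SMAD2/3, FOXL2 and H3K27ac, 1738.5 bp, and -13.353 and -0.8444 in rank, each with an exact sign-flip p of 0.5, the smallest that 2 pairs allow.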
